A study of Mus musculus with 6 samples.

Results

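The expression profile of wildtype long-term haematopoietic stem cells (LT-HSCs) was described from 3 arrays, chosen by their titles, out of 6 arrays in the study. The cells came from the bone marrow of wildtype mice (Irf8+/+ in the series title) and were sorted as lineage-negative, Sca-1-positive, c-kit-positive, CD48-negative and CD150-positive cells, with no treatment recorded. The labels give 3 weeks without saying whether this is an age, name no strain, and call the arrays biological replicates without naming animals or stating whether animals were pooled, so the spread given here is that between these samples; the study's design says that no array was a technical repeat. The other 3 arrays are labelled as Irf8 knockout and were not used for any value. RNA from the small number of sorted cells was amplified across the whole transcriptome and read on Affymetrix mouse genome arrays, on which 18193 genes had a probe set that names that gene alone.

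LT-HSCs are the blood cells that can rebuild every blood lineage after transplantation and keep doing so over the life of the host. Most of them divide rarely, and their state is held by a network of transcription factors, by signals from the marrow niche such as stem cell factor and CXCL12, and by inhibitors of the cell cycle. They are also known for low-level expression of genes of the lineages they can form, with platelet genes the best described case. CD150 and CD48 are members of the SLAM family of surface receptors, and their combination separates LT-HSCs from most multipotent progenitors, which carry CD48.

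Levels are log2 RMA signals, in which 1 unit is a 2-fold difference in signal, and the values of a gene are given in the order of replicates 1, 2 and 3. Signal also depends on how well a probe set binds its target, so the order of genes below is an order of array signal and not of transcript numbers. In genes with several probe sets the brightest of the set was used, and the gap between the brightest and the dimmest was large, with a median of 2.06 over 9010 genes. Averaging all probe sets of a gene instead shifted the medians of the 49 gene lists read here by -0.72 in the median list, and raised none. In 3072 genes the brightest probe set passed the background bound on all 3 arrays while the mean of the dimmest lay at or under it. A dim signal therefore does not show that a transcript is missing, and in these bulk samples a few cells with much RNA and many cells with little cannot be told apart.

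The arrays had close medians over all 45037 probe sets, 4.89, 4.91 and 4.92, and differed in sex-linked genes. Xist, the RNA that coats the silenced X chromosome of females, read 3.34, 2.67 and 11.70 in the first of its probe sets, 2.99, 2.89 and 11.44 in the second, and 7.60, 3.36 and 11.21 in the third. The Y-linked gene Eif2s3y read 9.95, 8.68 and 3.71, with 5.52, 5.31 and 3.84 in its other probe set. Replicate 3 was thus high for Xist and low for Eif2s3y, replicates 1 and 2 the reverse, and replicate 1 also had an intermediate value in a single Xist probe set.

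Genes spread over more than 12 log2 units, from a lowest mean of 1.85 to a highest of 14.01, with a median of 5.82 and a lower quartile of 4.12. To mark the background, 38 olfactory receptor genes, which sense odours in the nose, were read in the same way; their median was 2.86 and their 95th percentile, 4.40, 4.70 and 4.56 on the 3 arrays, served as the olfactory bound. Over this bound on all 3 arrays lay 10887 genes (59.8%), at or under it on all 3 lay 4838 genes (26.6%), called near background here, and 2468 genes (13.6%) passed it on 1 or 2 arrays. With the brightest probe set taken, 45.5% of genes with 1 probe set passed the olfactory bound on all 3 arrays. Among genes with several probe sets 74.5% did so, and the shares of all genes given below mix both kinds. Genes of 7 other tissues (liver, muscle, neurons, epidermis, eye, pancreas and germ line) showed that this bound is lenient, since 53 of 131, or 40.5%, passed it on all 3 arrays. A stricter bound, chosen after this was seen, was therefore set at the 95th percentile of those 131 genes, 6.72, 6.29 and 6.98, and 5513 genes (30.3%) passed it on all 3 arrays. The brightest 10% of genes, 1820 by definition, began at a mean of 9.60.

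**Figure D1:**
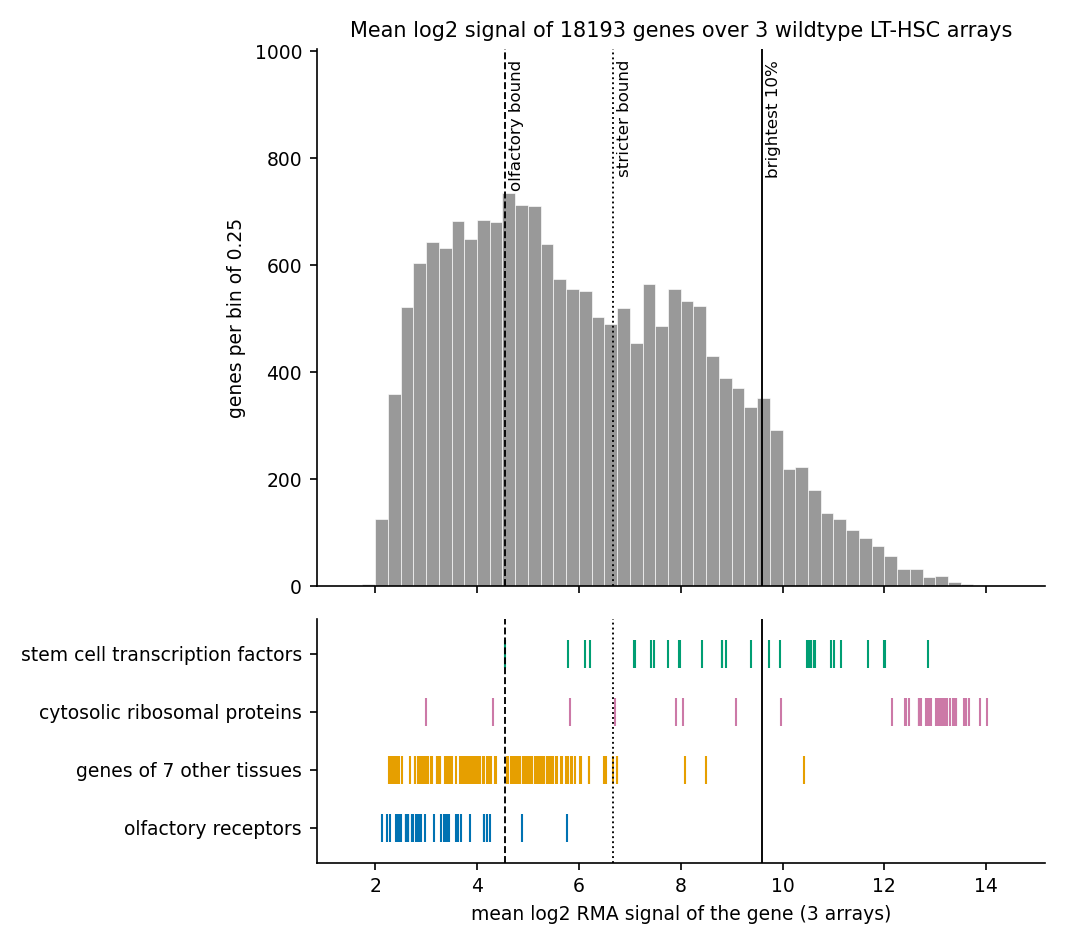
The upper panel counts genes by mean log2 RMA signal over the 3 wildtype arrays in bins of 0.25, and the lower panel marks the mean of each member of 4 gene lists as a tick. Dashed and dotted lines are the mean over arrays of the olfactory and the stricter bound, and the solid line is the start of the brightest 10% at 9.60; ribosomal protein genes crowd at the bright end, olfactory receptors at the dim end, with a median of 2.86.

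Bright and dim genes differed in the promoter sequence at their start sites. RefSeq windows of 300 bases, from 250 before to 50 after the start (mouse build GRCm38.p6), were matched for 11791 genes with a single window. The median number of CG dinucleotides per window was 17 over all matched genes, 23 in the brightest 10%, 20 in other genes over the olfactory bound on all 3 arrays, 15 in genes over it on 1 or 2 arrays and 6 in genes near background. Ranked the other way, the fifth of genes with the fewest CG dinucleotides had a median signal of 3.93 and 28.1% over the olfactory bound on all 3 arrays, and the fifth with the most had a median of 7.29 and 76.8%. Genes near background and genes of the brightest 10% thus lay at opposite ends of a scale from few to many CG dinucleotides.

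The stretch of 100 bases just before the start is shown for 2 ribosomal protein genes at the top of the signal range, for the stem cell factor Hlf, for Slamf1, which encodes the sorted marker CD150, and for the granule enzyme gene Mpo, whose signal ranged widely; capitals mark CG dinucleotides.
Rpl41, chr10:128549169-128549268, minus strand: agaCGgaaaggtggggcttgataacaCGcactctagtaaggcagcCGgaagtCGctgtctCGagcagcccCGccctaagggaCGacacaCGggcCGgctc
Rplp2, chr7:141447551-141447650, plus strand: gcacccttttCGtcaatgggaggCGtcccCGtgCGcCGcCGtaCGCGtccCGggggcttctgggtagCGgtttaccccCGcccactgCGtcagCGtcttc
Hlf, chr11:90390918-90391017, minus strand: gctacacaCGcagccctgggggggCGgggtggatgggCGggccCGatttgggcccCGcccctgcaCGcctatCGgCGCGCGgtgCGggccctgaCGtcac
Slamf1, chr1:171767032-171767131, plus strand: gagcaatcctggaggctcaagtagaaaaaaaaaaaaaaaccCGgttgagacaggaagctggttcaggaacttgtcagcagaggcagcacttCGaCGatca
Mpo, chr11:87793684-87793783, plus strand: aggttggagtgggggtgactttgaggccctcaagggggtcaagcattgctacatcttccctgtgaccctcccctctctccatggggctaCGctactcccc
These stretches held 9 CG dinucleotides in Rpl41, 13 in Rplp2, 12 in Hlf, 3 in Slamf1 and 1 in Mpo.

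Short motifs were searched on both strands of the 300-base windows, and a match describes the letters only. CCGGAAG, the core letters bound by ETS family factors, which themselves hold a CG, was found in 14.1% of all matched windows, in 21.7% of the brightest 10%, in 4.92% of genes near background and in 18 of 34 ribosomal protein genes (52.9%), Rpl41 and Rplp2 among them. GGGCGG, the GC box, which also holds a CG, was found in 54.3% of all windows, in 70.9% of the brightest 10% and in 32.7% of genes near background. The TATA box letters TATAAA ran the other way, with 10.2% of all windows, 8.16% of the brightest 10% and 16.9% of genes near background. Neutrophil genes, with a median of 3.5 CG dinucleotides, held TATAAA in 9 of 22 windows (40.9%), and megakaryocyte genes, with a median of 4, held it in 2 of 21 (9.52%). CCAAT was found in 41.5% of the brightest 10%, 39.2% of genes near background, 45.5% of neutrophil genes (10 of 22) and 26.5% of ribosomal protein genes (9 of 34). AAGATGG, which can overlap a start codon, was found in 6.85% of all windows and 20.6% of ribosomal protein genes.

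The label was checked against 6 marker genes of LT-HSCs. Procr, the endothelial protein C receptor, read 10.24, 10.63 and 10.77, and Hlf, a transcription factor of stem cell self-renewal, read 9.87, 10.64 and 11.11. Mecom, the gene of the stem cell factor EVI1, read 9.53, 9.81 and 9.89, and all 3 genes lay in the brightest 10% with SDs of 0.27, 0.63 and 0.19. Kit, the receptor of stem cell factor, read 9.38, 9.76 and 9.41, just short of the brightest 10%. Slamf1 itself was the least steady of them at 5.97, 9.11 and 6.63, over the stricter bound on replicate 2 only; its other probe sets read 7.77, 5.27 and 4.32, and 6.87, 6.21 and 5.99, so no array was highest throughout. Ly6a, the gene of Sca-1, was not analysed here. The 5 markers read all passed the olfactory bound on all 3 arrays, against 59.8% of all genes. Among genes with several probe sets, as Kit, Slamf1, Hlf and Mecom have, the share was 74.5%.

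Genes of the surface markers that the sort excluded were dim. Of 8 measured genes 5 were near background on all 3 arrays, against 26.6% of all genes, and the median was 3.88. Cd48 read 4.54, 4.31 and 3.12, over the olfactory bound on replicate 1 only. The lineage markers Cd3e (2.87, 2.77 and 3.51), Cd3g (mean 4.01), Cd5 (3.16) and Itgam (3.41, 4.06 and 3.86), and the interleukin 7 receptor gene Il7r (2.86, 2.94 and 2.67), were near background. Cd4 at 5.32, 6.51 and 5.72 and Cd8a at 4.99, 5.20 and 4.58 passed the olfactory bound on all 3 arrays, and neither passed the stricter bound on all 3.

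Transcription factors of stem cells stood among the brighter gene classes. Of 34 measured genes 31 passed the olfactory bound and 26 the stricter bound on all 3 arrays (all genes, 30.3%), and 18 lay in the brightest 10%; the median was 9.85. Egr1, a zinc finger factor that restrains stem cell division and is also an immediate-early gene, was the brightest at 12.82, 12.82 and 12.95. Myb, needed for definitive blood formation, followed at 11.89, 11.94 and 12.20, and the LIM protein Lmo2 at 12.03, 11.88 and 12.06. The widest range over the arrays among these 3 was 0.31, in Myb.

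The factors known to bind together at stem cell enhancers were mostly bright. Means with SD (n = 3) were 11.99 ± 0.10 for Lmo2, 11.15 ± 0.39 for Gata2, 10.62 ± 0.28 for Runx1, 10.56 ± 0.25 for Erg and 9.95 ± 0.27 for Fli1, all in the brightest 10%. Lyl1 at 8.81 ± 0.47 and Tal1 at 8.42 ± 0.99 were lower in signal but over the stricter bound on all 3 arrays. Beside them the brightest 10% held the forkhead factor Foxo3 (11.68), the corepressor Cbfa2t3 (11.01), the adaptor Ldb1 (10.96), the ETS factor Etv6 (10.65), the Hox cofactor Meis1 (10.57), Mllt3 (10.56), the N-Myc gene Mycn (10.51), and the erythroid and platelet factors Nfe2 (10.49) and Gfi1b (10.49).

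A few factors depended on the array in their brightest probe set. Foxo1 read 9.46, 9.51 and 4.93, Pbx3 read 3.97, 8.12 and 6.24, and Hoxb5, a marker of LT-HSCs, read 7.56, 5.84 and 3.95. Gfi1, a repressor that restrains proliferation, read 5.60, 4.76 and 8.30. In these probe sets each of the 3 arrays was the lowest for at least 1 of these 4 factors. The order of the arrays depended on the probe set, since the other probe set of Pbx3 read 6.14, 4.22 and 3.21. Other probe sets of Foxo1 read 5.82, 6.06 and 7.40, then 7.31, 4.73 and 3.34, and 4.39, 5.18 and 4.51. Sox18, an endothelial factor, was the dimmest of the list at 4.75, 4.36 and 4.52. The regulators Bmi1 (8.89 ± 0.77), Prdm16 (8.81 ± 0.64) and Ikzf1 (9.38 ± 0.71) had means short of the brightest 10%.

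**Figure D2:**
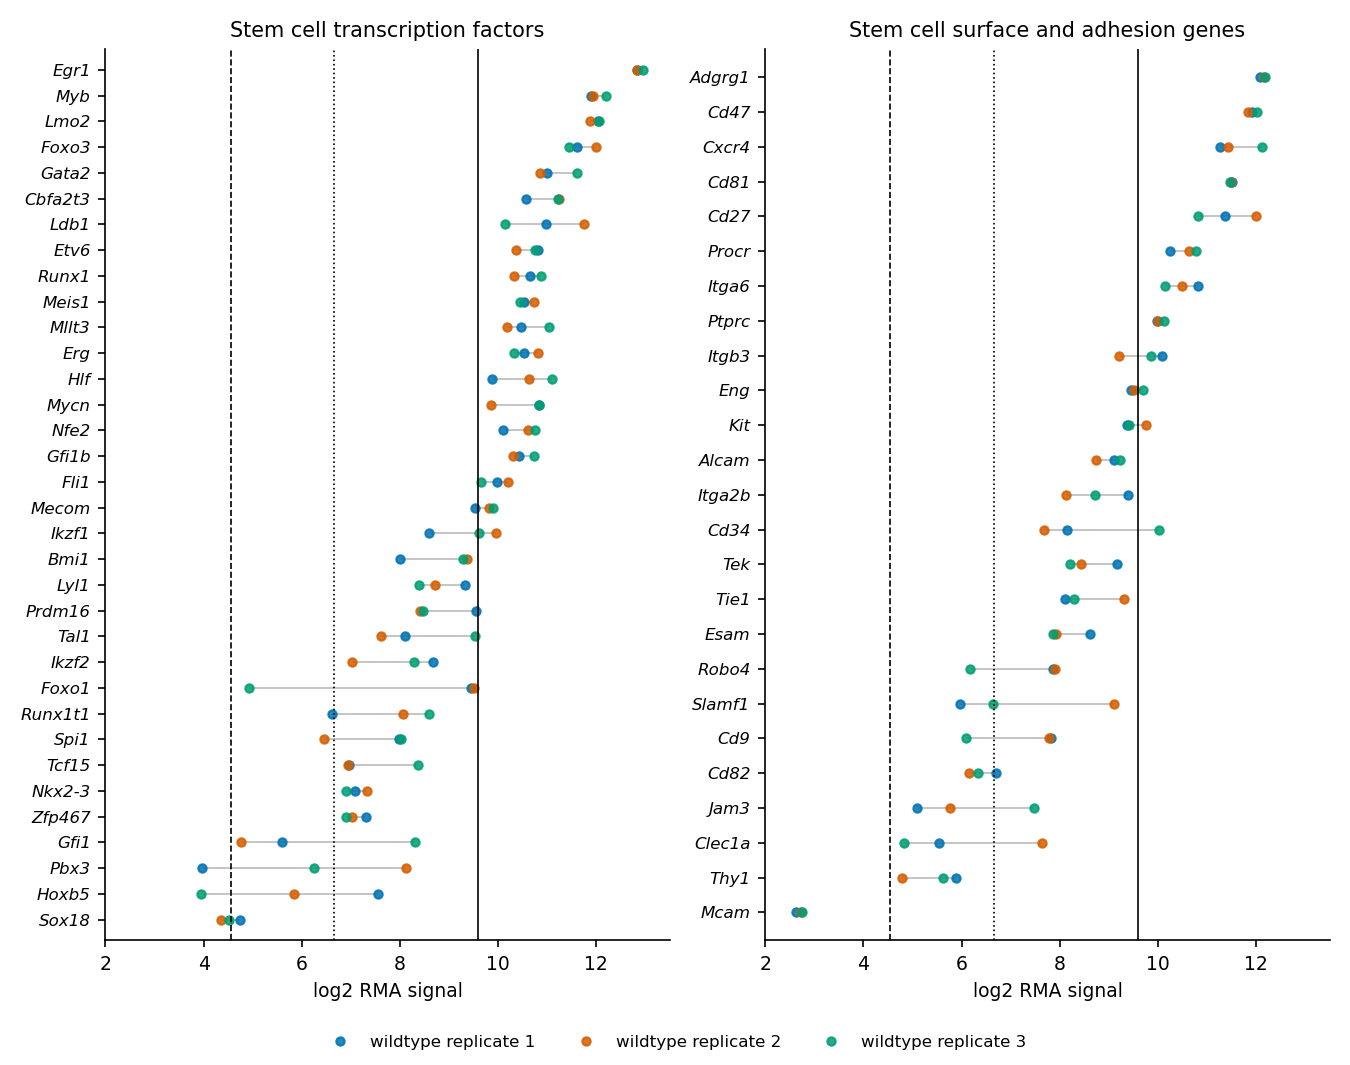
Each row shows a gene's log2 RMA signal on the 3 wildtype arrays (coloured points) for 34 stem cell transcription factors on the left and 25 surface and adhesion genes on the right, ordered by mean. Dashed, dotted and solid lines mark the olfactory bound, the stricter bound and the start of the brightest 10%; points of bright genes lie close together, while Foxo1, Pbx3, Hoxb5 and Slamf1 spread over 3 or more log2 units.

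Surface and adhesion genes of stem cells covered the whole range of signal. Of 25 measured genes 24 passed the olfactory bound and 17 the stricter bound on all 3 arrays, 9 lay in the brightest 10%, and the median was 8.75. The adhesion receptor Adgrg1 (GPR56) was the brightest at 12.09, 12.16 and 12.19, followed by Cd47, the signal that protects cells from being eaten by macrophages, at 11.91, 11.83 and 12.03. The CXCL12 receptor Cxcr4, which holds stem cells in the marrow, read 11.27, 11.42 and 12.13, highest on replicate 3. The tetraspanin Cd81 was among the steadiest genes of all at 11.50, 11.49 and 11.48.

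The rest of the bright surface genes were Cd27 (mean 11.39), Procr (10.55), the integrin Itga6 (10.49), the pan-leukocyte phosphatase Ptprc or CD45 (10.04) and the platelet integrin Itgb3 (9.72). Cd34, which adult LT-HSCs carry little of, read 8.16, 7.68 and 10.02, and Flt3, a receptor of multipotent and lymphoid progenitors, read 6.93, 6.19 and 6.63. Replicate 3 was thus the highest for Cd34 and not for Flt3. At the dim end Thy1 read 5.88, 4.78 and 5.62, and Mcam, an endothelial and stromal adhesion gene, was near background at 2.63, 2.72 and 2.75.

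A list of genes known to mark stem cells against other blood cells had a median of 8.85. Of 31 genes 26 passed the olfactory bound and 22 the stricter bound on all 3 arrays, and 13 lay in the brightest 10%. The interferon-inducible membrane genes Ifitm3 (12.82, 12.82 and 12.93) and Ifitm1 (12.72, 12.71 and 12.70) led it with Ly6e (12.21, 12.59 and 12.70). Then came Tgm2 (transglutaminase, 11.99), the signalling regulator Rgs1 (11.96), the mucin Muc13 (11.88), Myct1 (10.93) and Ltbp3, a binder of latent TGF-beta (10.62). Vwf, von Willebrand factor, which marks platelet-biased stem cells, read 9.06, 8.45 and 8.01, and Fgd5, used in stem cell reporter mice, read 7.72, 7.13 and 6.89. Neo1 at 7.65, 2.46 and 3.52 was over background on replicate 1 alone, and Plscr2 at 2.69, 3.21 and 2.58 was near background.

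Imprinted growth genes, which can be expressed from a single parental allele and are known in quiescent stem cells, were the list with the widest spread. Their median was 7.79 and their median SD 1.18, against 0.37 over all genes, and 7 of 13 ranged over more than 4-fold (all genes, 17%). In bin 8 of 10 equal bins of all genes by mean signal, which holds this list median, these values were 0.76 and 30.5%. The 3 brightest were steady: Gnas (12.22, 12.02 and 11.52), necdin or Ndn (11.29, 11.52 and 11.67) and Grb10 (10.11, 10.12 and 9.90). Cdkn1c, the cell cycle inhibitor p57, read 6.39, 8.16 and 10.04, Mest read 9.51, 8.47 and 4.50, and Dlk1 read 4.75, 8.19 and 3.76, so each array was the highest for some of these genes. Peg3 was dimmest at 3.27, 5.69 and 2.93, then Plagl1 at 4.70, 4.37 and 4.96. Without replicate 1 the list median was 8.79, and without replicate 2 it was 7.05.

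Hox genes, which encode position along the body axis and in blood mark immature cells, fell into a bright and a dim set. In the A cluster Hoxa9 led at 10.26, 10.65 and 11.57, with Hoxa3 (9.18, 9.07 and 10.81), Hoxa5 (8.60, 10.02 and 9.69), Hoxa7 (7.16, 7.85 and 7.27) and Hoxa10 (7.78, 7.55 and 6.50) over the olfactory bound on all 3 arrays. Hoxa2 (mean 3.76), Hoxa11 (3.59), Hoxa13 (3.57) and Hoxa4 (2.87) were near background. The A cluster median of 7.28 came down to 5.10 when all probe sets of a gene were averaged.

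In the B cluster only Hoxb4, known for expanding stem cells, passed the stricter bound on all 3 arrays, at 9.06, 7.04 and 8.86. Hoxb3 read 7.49, 5.42 and 8.07, and Hoxb6 was over background on replicate 2 alone at 3.00, 7.28 and 3.37. Hoxb13 (5.37) and Hoxb7 (5.26) passed the olfactory bound on all 3 arrays and the stricter bound on none, Hoxb2 (3.91) passed the olfactory bound on 1 array, and Hoxb9 (4.04) and Hoxb1 (2.35) were near background. In the C and D clusters Hoxc9 (6.16), Hoxc6 (4.86), Hoxc5 (4.86), Hoxd12 (5.90), Hoxd9 (4.92) and Hoxd13 (4.79) passed the olfactory bound on all 3 arrays, and none passed the stricter bound on all 3. The other 9 measured genes were near background, namely Hoxc10 (3.40), Hoxc13 (2.95), Hoxc4 (2.69), Hoxc8 (2.56), Hoxd8 (4.2), Hoxd11 (3.02), Hoxd3 (2.92), Hoxd10 (2.84) and Hoxd1 (2.33). Medians were 7.28, 5.26, 3.40 and 3.61 for the A, B, C and D clusters.

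Genes of the protein synthesis machinery gave the strongest and steadiest signals. Of the 15 brightest genes 12 encoded proteins of the cytosolic ribosome, headed by Rpl41 (14, 13.94 and 14.09), Rplp2 (13.87, 13.84 and 13.91), whose promoters are printed above, and Rps28 (13.58, 13.67 and 13.74). Rps29, Rpl35, Rpsa, Rpl38, Rpl22, Rps18, Rpl37a, Rps24 and Rpl10a followed with means from 13.23 to 13.61. The 3 others were Vdac1, the channel of the outer mitochondrial membrane (13.37), the RNA-binding protein gene Hnrnpab (13.33) and B2m, the light chain of MHC class I (13.29). Over the 44 ribosomal protein genes measured of 79 listed, the median was 13.02 and the median SD 0.07, and 37 lay in the brightest 10%.

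The ribosomal list also shows what the array cannot tell. Rps16 read 3.12, 2.79 and 3.07 and Rpl37 read 4.27, 4.33 and 4.35, both near background although every ribosome carries both proteins, and each was read by a single probe set. Ndufb4 of complex I of the respiratory chain, also with a single probe set, was near background at 2.66, 2.99 and 2.66. Cox7c of complex IV (4.72, 4.98 and 4.95) was the next dimmest of the respiratory list, and the histone gene H3f3b (4.57, 4.88 and 4.74) was the dimmest of its own. Dim signals were thus found for genes that all cells use.

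Other parts of protein synthesis were bright as well. All 32 measured translation factors passed the stricter bound on all 3 arrays and 27 lay in the brightest 10%, with a median of 11.33; the elongation factor gene Eef1a1 read 13.23, 13.24 and 13.18, Tpt1 read 12.91, 12.93 and 12.92 and Eef2 read 12.86, 12.71 and 12.67. The dimmest were the initiation factor subunits Eif3b (8.20) and Eif3m (8.15). Mitochondrial ribosomal proteins were dimmer and less steady, with a median of 8.81 and a median SD of 0.57 over 74 genes, of which 63 passed the stricter bound and 16 were in the brightest 10%. Their range ran from Mrpl52 (12.78), Mrpl42 (11.99) and Mrpl39 (11.62) to Mrpl1 (6.22) and Mrpl46 (6.54, 7.63 and 4.21).

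RNA and chromatin factors followed. All 39 measured splicing and RNA-binding genes passed the stricter bound on all 3 arrays and 36 lay in the brightest 10%, with a median of 11.19, from Hnrnpab (13.31, 13.34 and 13.35), the spliceosome gene Snrpg (12.79) and Sf3b1 (12.25) to U2af1 (9.03) and Srsf9 (8.21). Histone variants and chromatin proteins had a median of 10.47 and 12 of 17 in the brightest 10%. They were led by the nucleosome-binding Hmgn1 (13.03, 13.01 and 13.11), the nucleolar chaperone Npm1 (12.69, 12.57 and 12.65) and the histone variant H2az1 (12.38, 12.40 and 12.28).

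The lists of energy metabolism genes differed in signal. Of 72 measured subunits of the respiratory chain and ATP synthase 69 passed the stricter bound on all 3 arrays and 58 lay in the brightest 10%, with a median of 10.83 and a median SD of 0.28. Cox5b of complex IV led at 13.05, 13.11 and 13.13, ahead of the complex I genes Ndufb7 (12.70) and Ndufb11 (12.52). A mixed list of glycolytic enzymes, glucose transporters and pyruvate dehydrogenase kinases had a median of 8.94 and a median SD of 0.61. The aldolase Aldoa (11.82, 11.95 and 11.95) and the lactate dehydrogenases Ldha (11.58) and Ldhb (11.28) were bright.

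Several genes of this mixed list depended on the array in their brightest probe set. Slc2a3, a glucose transporter, read 10.86, 12.22 and 9.39. The pyruvate dehydrogenase kinases, which divert pyruvate from mitochondria and are known to keep stem cells quiescent, ranged from Pdk3 (8.47, 9.30 and 9.62) and Pdk1 (8.28, 8.41 and 8.95) to Pdk2 (4.03, 8.21 and 5.48) and Pdk4 (6.45, 2.68 and 2.84). In these probe sets replicate 1 was the lowest for Pdk3, Pdk1 and Pdk2 and the highest for Pdk4. Other probe sets of Pdk1 read 6.78, 6.57 and 6.63, then 5.59, 3.76 and 5.62, and 7.75, 8.37 and 7.98, so its order depended on the probe set. The Slc2a3 probe set next in signal was also highest on replicate 2, but others read 8.63, 7.16 and 7.22, and 7.60, 7.18 and 8.39. The members Slc2a3, Pdk1 and Pdk3 were named after their values were seen.

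The cytoskeleton and the proteins that fold and remove other proteins were bright. The cytoskeleton list had a median of 11.37, led by Actb (13.02, 12.92 and 12.97), Tmsb10 (12.81) and the actin-binding profilin Pfn1 (12.64), with Cotl1 (7.86) and Myl6 (7.78) the dimmest. Cytosolic chaperones had a median of 11.04 and 20 of 24 in the brightest 10%, with Hspa8 (12.64, 12.66 and 12.70), Hspe1 (12.01) and Tcp1 (12.01) first. The dimmest members were Hspa1a, near background at 2.42, 2.41 and 2.12, and Hspb1 (mean 5.23), then Hspa1b at 6.11, 4.25 and 8.40, while the heat-inducible Dnajb1 read 11.41, 11.41 and 11.08; Hspa1b and Dnajb1 were named after their values were seen. All 31 proteasome subunits passed the olfactory bound on all 3 arrays and 17 lay in the brightest 10%, with a median of 9.74, from Psma6 (11.51), Psmb4 (11.48) and Psmb3 (11.37) to Psmd7 (7.66) and Psmd13 (9.04, 8.59 and 4.94).

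**Figure D3:**
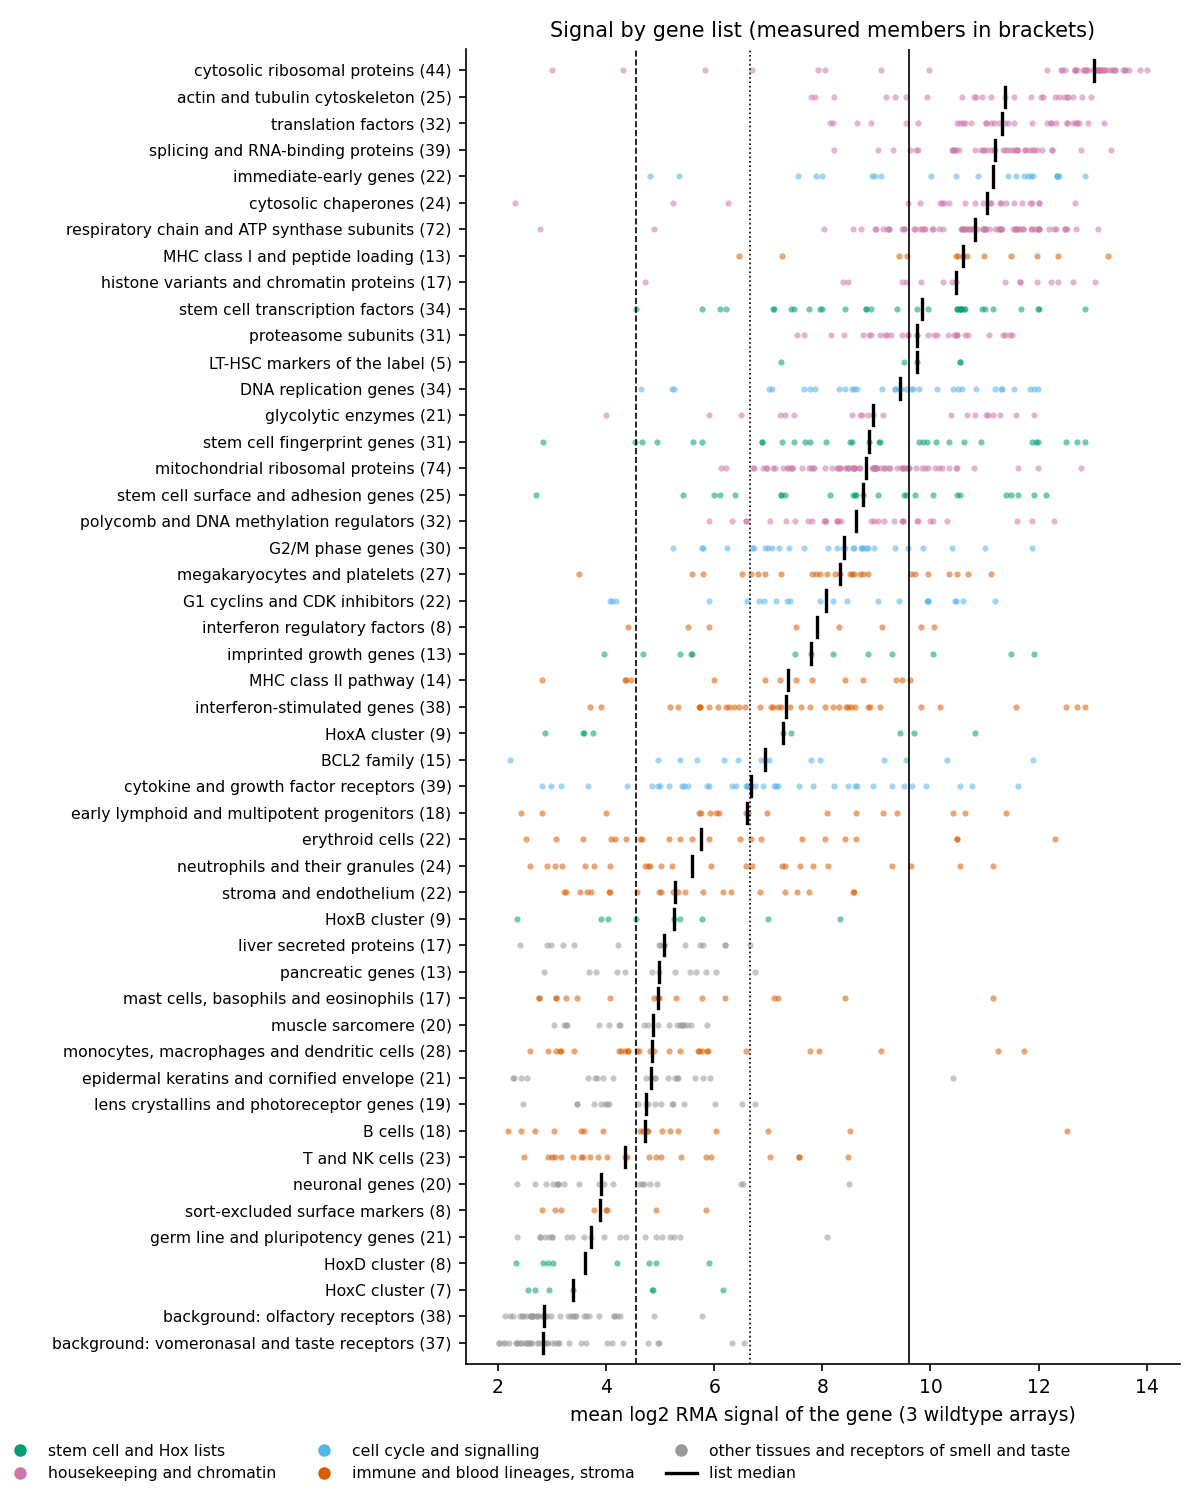
Each point is a gene's mean log2 RMA signal over the 3 wildtype arrays, each line a gene list with its number of measured genes, and black bars are list medians; lists are sorted by median. Dashed, dotted and solid lines mark the olfactory bound, the stricter bound and the start of the brightest 10%. Medians run from 13.02 for cytosolic ribosomal proteins to 2.83 for vomeronasal and taste receptors, and most blood lineage lists lie near those of other tissues but hold a few bright genes.

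Regulators of DNA methylation and polycomb repression, which silence genes of other fates, sat in the middle to upper range. All 32 measured genes passed the olfactory bound, 24 passed the stricter bound on all 3 arrays and 8 lay in the brightest 10%, with a median of 8.62. The histone-binding subunits Rbbp4 (12.36, 12.21 and 12.28) and Rbbp7 (11.84, 11.97 and 11.82) and the maintenance methyltransferase Dnmt1 (12.12, 11.94 and 10.76) were the brightest. Dnmt3a, which limits self-renewal, read 9.85, 10.27 and 9.86, and Tet2, which opposes methylation, read 8.88, 7.71 and 8.44. The polycomb enzymes read 8.32, 7.77 and 8.72 for Ezh1 and 6.79, 7.97 and 8.67 for Ezh2, ranges that overlapped. Cbx2 (6.33) and Cbx8 (5.91) were the dimmest; Dnmt3a, Tet2, Ezh1 and Ezh2 were named after their values were seen.

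No measured gene of the DNA replication and G2/M lists was near background on all 3 arrays. Of 34 measured DNA replication genes 31 passed the olfactory bound and 29 the stricter bound on all 3 arrays, and 15 lay in the brightest 10%, with a median of 9.43; the flap endonuclease Fen1 read 11.88, 11.98 and 12.11, Rpa1 read 11.53, 11.60 and 12.64 and the sliding clamp Pcna read 11.90, 11.90 and 11.71. The helicase subunits Mcm3 (11.34, 11.59 and 9.61) and Mcm4 (10.17, 10.45 and 8.02), named after their values were seen, were lowest on replicate 3. Orc1 (6.93, 5.50 and 3.23) and Tyms (5.13, 4.31 and 4.51) were the dimmest. The list median was 9.53, 9.96 and 8.78 on the 3 arrays, and it came down to 8.61 when probe sets of types that can bind several genes were left out.

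G2/M genes, used in mitosis, were lower and far less steady. Their median was 8.39, 18 of 30 passed the stricter bound on all 3 arrays and 4 lay in the brightest 10%. A range of more than 4-fold was found in 14 of 30 (all genes, 17%), and the median SD was 0.92. Spread depends on signal. In bin 8 of 10 equal bins of all genes by mean signal, which holds this list median, these values were 30.5% and 0.76. The proliferation marker Mki67 read 11.81, 11.63 and 12.18 and the ubiquitin-conjugating enzyme Ube2c read 10.99, 10.92 and 11.10, both steady. The mitotic kinases were not: Cdk1 read 7.0, 10.77 and 8.49, and Aurkb read 7.09, 11.03 and 8.07, highest on replicate 2, while Ccna2 read 11.60, 10.33 and 9.29, highest on replicate 1. Cdc25c (5.77) and Anln (5.23) were the dimmest, and Cdk1 and Aurkb were named after their values were seen.

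G1 regulators held both drivers and brakes of the cycle. Cyclin D2 (Ccnd2) was the brightest at 11.25, 11.23 and 11.11, followed by Cdk4 (11.35, 10.53 and 9.92), Btg2 (10.54, 10.22 and 10.65) and Cdk6 (10.86, 10.34 and 10.18), the last named after its values were seen. Of the inhibitors, p27 or Cdkn1b read 10.17, 9.65 and 9.98 and p21 or Cdkn1a read 8.83, 9.22 and 9.02. Their other probe sets were less steady, at 7.94, 9.46 and 9.16 for Cdkn1b and 6.95, 8.22 and 8.89 for Cdkn1a, both lowest on replicate 1. The senescence-linked Cdkn2a at 3.97, 4.05 and 4.18, Cdkn2b (4.18) and Tob1 (4.12) were near background. The list had a median of 8.07, with 19 of 22 over the olfactory bound and 13 over the stricter bound on all 3 arrays; Cdkn1a, Cdkn1b and Cdkn2b were named after their values were seen.

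In the BCL2 family, which decides on cell survival, the survival gene Mcl1, on which stem cells depend, was the brightest at 11.80, 11.86 and 12.01. Bcl2 itself read 11.12, 9.58 and 10.19, and the death genes Bad and Bak1 read 9.55 and 9.15 on average. Bcl2l11, the death gene BIM, read 2.72, 7.80 and 10.09 in its brightest probe set and 7.11, 7.06 and 4.87 in its next, so its order between arrays depended on the probe set. Bik (4.96) and Pmaip1 (2.22) were the dimmest of 15 genes, with a list median of 6.93.

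Immediate-early genes, which cells switch on within minutes of a stimulus, were among the brightest classes. Of 22 genes 20 passed the stricter bound on all 3 arrays and 14 lay in the brightest 10%, with a median of 11.16 and a median SD of 0.32. Egr1 (given above), Jund (12.52, 12.38 and 12.25) and Myc (12.47, 12.44 and 12.13) led, and Fos read 11.99, 12.48 and 12.56, Jun 11.55, 11.60 and 12.24, and the orphan receptor Nr4a1 11.62, 12.06 and 11.98. The list median was 10.77, 11.44 and 11.11 on the 3 arrays, and 4 of 22 genes ranged over more than 2-fold, against 38.5% of all genes. The dim members were Atf3 (4.67, 6.75 and 4.65) and Ccn1 (4.73, 5.30 and 4.38). Fos, Jun and Nr4a1 were named after their values were seen.

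Receptors for cytokines and growth factors lay lower, with a median of 6.69; 12 of 39 passed the stricter bound on all 3 arrays, near the 30.3% of all genes, and 5 lay in the brightest 10%. Cxcr4 led, ahead of Notch2 (11.12, 9.69 and 11.49) and the interferon receptor subunit Ifnar2 (9.96, 10.56 and 11.15). Tek, the angiopoietin receptor of stem cells, read 9.16, 8.43 and 8.21, Csf3r, the G-CSF receptor, 9.10, 9.30 and 9.49, and Igf1r 10.49, 9.55 and 9.72. The macrophage receptor Csf1r depended on the array at 3.22, 8.26 and 6.10, and so did Tlr2 at 5.29, 9.24 and 4.68, both highest on replicate 2. Osmr (2.97) and Il7r (2.82) were the dimmest, and the 5 genes from Tek to Tlr2 were named after their values were seen.

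Antigen presentation genes separated by class. MHC class I and peptide loading genes had a median of 10.60, with all 13 over the olfactory bound and 9 in the brightest 10%, from B2m (13.33, 13.23 and 13.30), H2-K1 (12.49, 12.39 and 12.19) and H2-D1 (mean 11.97) to Erap1 (7.26) and Tap2 (6.46). Class II genes, typical of antigen-presenting cells, had a median of 7.37, with 6 of 14 over the stricter bound on all 3 arrays. H2-Aa read 10.30, 9.98 and 8.55, H2-Ab1 read 9.40, 9.57 and 9.44 and H2-DMa read 9.81, 9.08 and 9.17. Their master regulator Ciita, at 4.43, 4.35 and 4.33, passed the olfactory bound on replicate 1 only, and H2-DMb2 (4.36) and Lgmn (2.82) were near background.

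Interferon-stimulated genes were spread widely around a median of 7.33, with 32 of 38 over the olfactory bound, 16 over the stricter bound and 6 in the brightest 10%. The constitutive Ifitm3, Ifitm1 and Ly6e, given with the stem cell markers, led, and the antiviral GTPases Mx1 (3.62, 3.94 and 4.16) and Mx2 (3.52, 2.92 and 4.69) were the dimmest. Among the interferon regulatory factors Irf1 read 9.92, 10.24 and 10.01, Irf2 read 9.11, 10.07 and 10.29, Irf3 read 9.77, 7.57 and 9.97 and Irf9 read 8.21, 7.80 and 8.89. Irf5 followed at 7.99, 8.08 and 6.46, Irf7 at 5.78, 5.78 and 6.14, Irf8, the gene knocked out in the other arrays of the study, at 4.98, 6.43 and 5.16, and the lymphoid factor Irf4 at 3.86, 4.44 and 4.90. Irf1 and Irf2, both known in stem cell maintenance, were thus the only members in the brightest 10%.

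Genes of mature blood lineages were mostly dim, and the lists differed in median. Megakaryocyte and platelet genes had a median of 8.32, with 24 of 27 over the olfactory bound, 17 over the stricter bound (30.3% of all genes) and 7 in the brightest 10%. The median was 6.60 for genes of multipotent and early lymphoid progenitors, 5.75 for erythroid genes and 5.58 for neutrophil genes. It was 4.95 for genes of mast cells, basophils and eosinophils, 4.86 for those of monocytes, macrophages and dendritic cells, 4.72 for B cell genes and 4.34 for T and NK cell genes. Genes of stroma and endothelium had a median of 5.28. Lists from other tissues gave medians from 3.72 for germ line genes to 5.07 for liver genes, and the medians of the mast cell, monocyte, B cell and T cell lists lay within that range.

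Platelet genes in detail ran from Pf4, platelet factor 4 (12.03, 10.09 and 11.21), the thrombin receptor F2r (11.38, 10.65 and 10.06) and Nfe2 (10.11, 10.61 and 10.76) to Clec1b (6.91, 3.97 and 5.90) and the collagen receptor Gp6 (3.74, 3.05 and 3.72). Itga2b, the alpha subunit of the platelet fibrinogen receptor, read 9.39, 8.13 and 8.72. Replicate 1 was the highest array for 21 of 27 genes, against 28% of all genes, and the list median was 9.31, 8.13 and 7.94 on the 3 arrays. The widest gaps were in the platelet chemokine gene Ppbp (10.54, 6.54 and 6.57) and the platelet tubulin gene Tubb1 (10.58, 7.01 and 3.22). Without replicate 1 the list median was 8.0, close to the 8.01 where the brightest 25% of all genes begin. Itga2b, Ppbp and the other platelet genes outside the brightest 3 and dimmest 2 were named after their values were seen.

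Erythroid genes covered a wide range of signal. Carbonic anhydrase Car2 (12.80, 11.99 and 12.11), which is not limited to red cells, and the shared factors Nfe2 and Gfi1b were bright, and the receptor Tfrc read 8.54, 8.82 and 8.49. Gata1, the main erythroid and platelet factor, read 7.72, 5.93 and 6.40, and its partner Klf1 read 7.40, 7.91 and 7.56. The red cell carbonic anhydrase gene Car1 read 8.90, 7.44 and 4.26 and the erythropoietin receptor gene Epor read 7.51, 4.68 and 5.52, both highest on replicate 1. The haem synthesis enzyme gene Alas2 was near background at 4.05, 3.89 and 4.34, the globin gene Hba-a1 read 4.33, 4.46 and 5.18, and Kel (3.07) and Trim10 (2.51) were the lowest. Tfrc, Gata1, Klf1, Car1, Epor, Alas2 and Hba-a1 were named after their values were seen, and 11 of 22 genes passed the olfactory bound on all 3 arrays, below the 59.8% of all genes.

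Neutrophil genes also held a few bright members above a dim rest. S100a9 (11.38, 10.85 and 11.26), S100a8 (10.82, 10.91 and 9.90) and the granule protease Prtn3 (9.04, 9.63 and 10.26) were in the brightest 10%, while Cxcr2 (2.91), Fpr2 (2.60) and Cebpa (3.79, 3.60 and 3.47), the factor that starts the granulocyte programme, were near background. The peroxidase Mpo swung between the arrays at 6.91, 11.38 and 3.47, and the elastase Elane read 7.57, 8.0 and 4.2, both lowest on replicate 3. Of 24 genes 10 passed the olfactory bound on all 3 arrays, against 59.8% of all genes. When replicate 3 was left out 16 passed it on both other arrays, but fewer passes are then asked for, so counts tend to rise. Over the 49 lists the change in this count without replicate 3 was 0 in the median and 6 at most. The list median was 6.39, 5.54 and 4.50. Cebpa and Elane were named after their values were seen.

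Monocyte and lymphoid lists were alike in this. Lyz1 (12.07, 11.92 and 11.18) and Lyz2 (11.23, 11.59 and 10.90), lysozyme genes, and Klf4 (9.49, 9.16 and 8.63), also an immediate-early gene, led the monocyte list. The bright probe sets of Lyz1 (means 11.72 and 10.87) are of a type that can bind several genes, and its remaining probe set (mean 3.61) was near background. The bright signal therefore cannot be assigned to Lyz1 alone. In the monocyte list 10 of 28 genes passed the olfactory bound on all 3 arrays and 9 were near background. Adgre1 (3.07), Cd14 (4.23), Cd209a (2.92) and Cd163 (2.59) were among the latter, while Cd68 had a mean of 7.93, with its lowest value, 5.66, on replicate 2, and Cx3cr1 read 4.46, 8.84 and 4.36. The B cell list was led by Cd24a (12.52, 12.76 and 12.28), which many immature cells carry, then Cd79b (7.64, 9.69 and 8.23) and Cd72 (7.0), with Rag1 (2.43) and Pou2af1 (2.18) the dimmest. In T and NK cells Nkg7 (8.66, 9.05 and 7.69), Prf1 (8.63, 7.55 and 6.50) and Cd247 (6.73, 8.47 and 7.49) stood above the rest, and Tbx21 (2.93) and Klrd1 (2.47) closed the list. In the progenitor list Cd27, Lsp1 (10.63) and Mef2c (10.65, 9.77 and 10.83) were in the brightest 10%. Adgre1, Cd14, Cd68 and Cx3cr1 were named after their values were seen.

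Some genes of other marrow cells were highest on replicate 2. The eosinophil granule genes Prg2 (4.26, 10.49 and 3.87), Prg3 (3.51, 7.87 and 3.48) and Epx (3.98, 7.40 and 3.56) and the basophil protease Mcpt8 (4.40, 9.26 and 7.63) were highest there, as were 10 of 17 genes of their list, against 35.2% of all genes. Their list median was 4.2, 5.97 and 3.87 on the 3 arrays and 4.06 without replicate 2 and 5.58 without replicate 3. Gata2 (mean 11.15) and Mitf (8.71, 9.40 and 7.13) were the brightest members, Gata2 being also a stem cell factor, and Fcer1a (2.77) and Ms4a2 (2.75) the dimmest. Mcpt8, Prg2, Prg3 and Epx were named after their values were seen.

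Immunoglobulin and some stromal genes were also highest on replicate 2 in their brightest probe set. Igk read 4.14, 11.70 and 9.84 and Ighm read 5.96, 11.85 and 9.53, both lowest on replicate 1. Among other probe sets of Ighm, readings of 4.92, 8.55 and 5.19 and of 4.92, 9.70 and 4.76 were highest on replicate 2 but not raised alike on replicate 3. The rest of its probe sets differed little between arrays. Over the whole B cell list the medians were 4.60, 4.65 and 4.61, with 8 of 18 genes highest on replicate 2, against 35.2% of all genes. Among its members Cd79b, given above, was highest on replicate 2, while Pax5 read 4.96, 5.23 and 4.90 and Ms4a1 read 2.96, 2.79 and 2.31. The collagen gene Col1a2 read 5.08, 9.33 and 4.50, Col1a1 read 5.96, 8.57 and 7.38, and the niche chemokine gene Cxcl12 read 4.19, 9.07 and 7.30. The other probe set of Col1a1 (4.55, 10.24 and 3.90) was again highest on replicate 2. Other probe sets of Col1a2 (3.10, 4.10 and 4.46) and Cxcl12 (4.01, 6.10 and 6.35) were highest on replicate 3. Both genes also had a dim probe set that differed little, at 2.86, 2.98 and 2.80 for Col1a2 and 4.71, 4.67 and 4.66 for Cxcl12. The stroma list was otherwise led by the endothelial genes Emcn (9.20, 8.87 and 7.69), Tie1 (8.10, 9.31 and 8.29) and Pecam1 (9.13, 7.51 and 6.64), of which Emcn and Pecam1 were highest on replicate 1. Lepr (4.07) and Kitl (4.06), which define the stem cell niche, and Cdh5 (3.72), which defines endothelium, were near background, as were Lum (3.26) and Sp7 (3.22). Over the whole stroma list the medians were 4.83, 5.52 and 4.80, with 9 of 22 genes highest on replicate 2, near the share of all genes. The part of other marrow cells in these signals was not tested, and apart from Igk, Emcn, Tie1, Pecam1, Lum and Sp7 the genes were named after their values were seen.

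Genes of the interferon response and of DNA replication set replicate 3 apart. Of 38 interferon-stimulated genes 27 were highest on replicate 3, against 36.8% of all genes, and the median deviation from each gene's own mean was -0.11, -0.14 and 0.51. Usp18, which shuts off interferon signalling, read 6.20, 3.09 and 9.50, Oasl2 read 7.62, 9.07 and 9.83, and Ifit1 read 5.18, 3.71 and 7.09. Of 34 DNA replication genes 6 were highest on replicate 3, and the median deviation was 0.16, 0.30 and -0.40. Replicate 3 also differed in Xist and Eif2s3y, as given above, and the part of that difference was not tested. Usp18, Oasl2 and Ifit1 were named after their values were seen, as were the lists in this comparison.

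**Figure D4:**
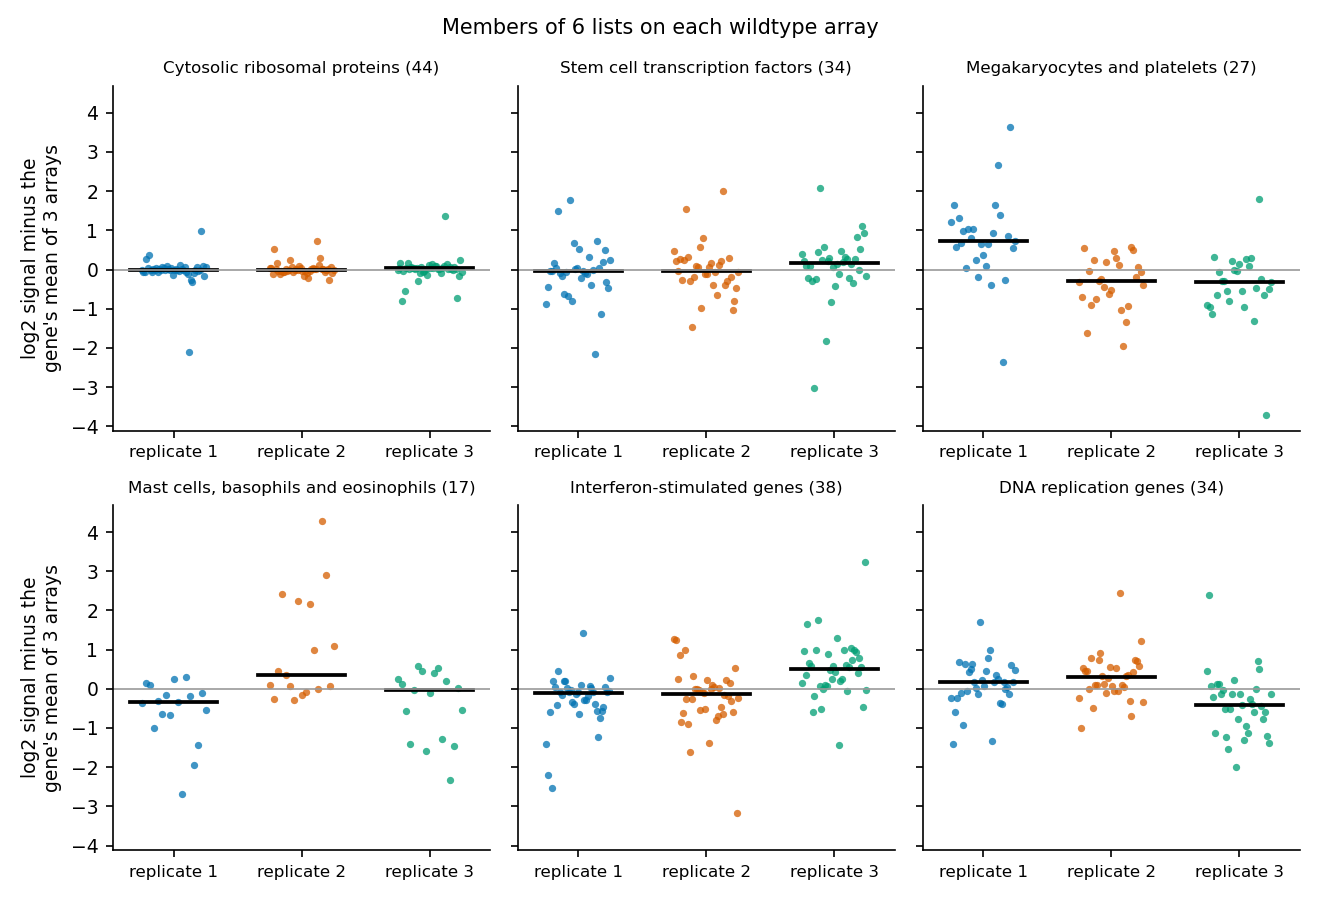
Each point is a gene's log2 signal on an array minus the gene's own mean over the 3 wildtype arrays, for 6 lists with the number of genes in brackets, and black bars are medians. Most ribosomal protein genes lie close to 0 on each array, whereas the platelet list is raised on replicate 1 (median 0.72), the mast cell, basophil and eosinophil list on replicate 2 (0.34) and the interferon-stimulated list on replicate 3 (0.51).

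Lists of genes of other tissues had medians from 3.72 to 5.07, below the median of 5.82 over all genes. The stricter bound is a percentile of these same genes, so a small number of them over it is built in. The 3 genes over it on all 3 arrays were Krt18, Camk2a and Prm1. Krt18, a keratin of simple epithelia, was in the brightest 10% at 10.13, 10.13 and 11. Camk2a, a kinase best known from neurons, read 7.74, 8.10 and 9.65, while the means of its other probe sets ran from 3.18 to 7.66, and Prm1, a sperm protamine, read 8.25, 7.73 and 8.30 in 1 probe set and at most 2.65 in both others. The brightest genes of the other lists were lower, with Apoa2 (6.67) for liver, Myh7 (5.86) for muscle, Gnat2 (6.75) for the eye and Cela3b (6.75) for the pancreas. Apoa1 was highest on replicate 3 at 4.79, 5.04 and 8.78, and so were Krt8 at 4.58, 4.56 and 8.26 and the neuronal enolase Eno2 at 5.41, 3.46 and 10.63. Pluripotency genes such as Nanog (2.86), Sox2 (2.36) and Zfp42 (2.78) were near background; Nanog was named after its values were seen.

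The steadiness of the arrays depended on the level of the signal. Over all genes the median SD between the 3 arrays was 0.37; it was 0.19 near background, 0.79 in genes over the olfactory bound on 1 or 2 arrays, 0.52 in genes over it on all 3 and 0.38 in the brightest 10%. In 10 equal bins of signal it rose from 0.16 in the dimmest to 0.82 in bin 7 and was lower again in brighter bins. A range over the 3 arrays of more than 2-fold was found in 7012 genes (38.5%), of more than 4-fold in 3086 (17%) and of more than 16-fold in 415 (2.28%). In the brightest 10% 1225 genes (67.3%) ranged over less than 2-fold and 97 over more than 4-fold.

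**Figure D5:**
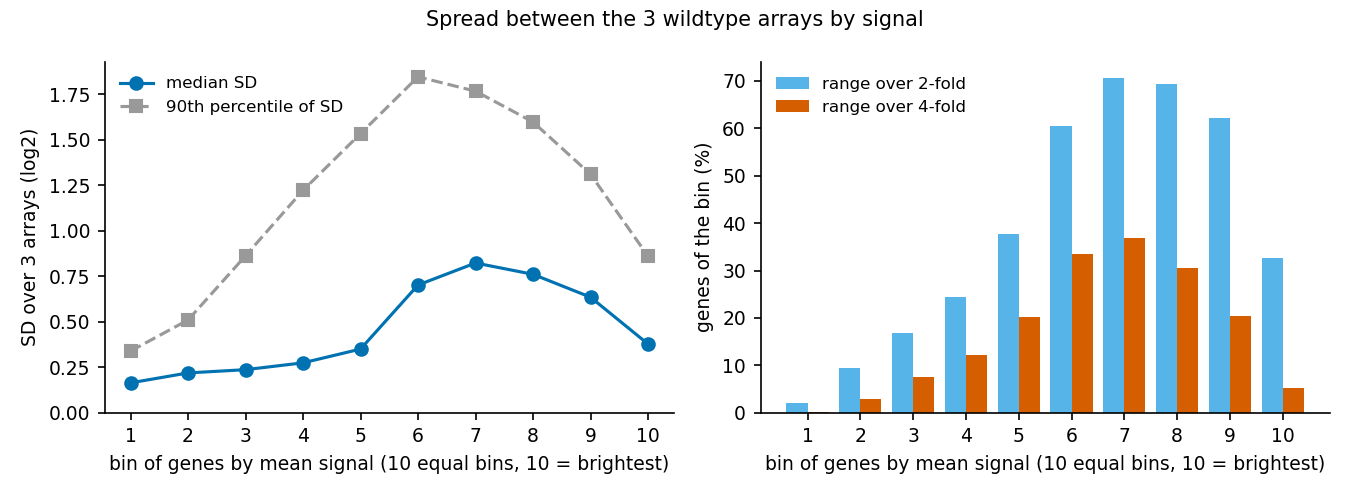
Genes are ordered by mean signal and cut into 10 equal bins, with 10 the brightest. The left panel gives the median and the 90th percentile of the SD over the 3 wildtype arrays on the log2 scale, and the right panel the percent of genes in each bin that range over more than 2-fold or 4-fold; the median SD peaks at 0.82 in bin 7 and is 0.38 in the brightest.

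Over all genes the 3 pairs of arrays were about equally alike. Pearson correlations across genes, which are not independent replicates, were 0.912 for replicates 1 and 2, 0.899 for 1 and 3 and 0.892 for 2 and 3; within the brightest 10% they were 0.748, 0.667 and 0.650. Median absolute differences between arrays were 0.392, 0.418 and 0.420. Of the 415 genes that ranged over more than 16-fold, 133, 147 and 135 were highest on replicates 1, 2 and 3. Genes over the stricter bound on a single array and near background on both others numbered 57, 73 and 43.

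The steadiest genes of the brightest 10% came from many pathways. Ptpa, an activator of the phosphatase PP2A, read 11.87, 11.86 and 11.86, Spns2, an exporter of sphingosine 1-phosphate, read 10.23, 10.25 and 10.23, and Ifitm1 and Cd81 were given above. Rcsd1 (9.94, 9.94 and 9.96), the ribosomal Rps4x (12.86, 12.89 and 12.88), Tpt1, the initiation factor Eif4h (11.55, 11.53 and 11.56), the ubiquitin-conjugating enzyme Ube2d3 (12.19, 12.16 and 12.17) and the phosphatase Ptp4a2 (11.65, 11.67 and 11.69) completed the 10. Their SDs ran from 0.005 in Ptpa to 0.016 in Ptp4a2.

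The widest ranges belonged to genes that were bright on 1 or 2 arrays and near background on another. Zfp597, a zinc finger gene, read 11.76, 3.91 and 3.81, Tmcc3 read 2.82, 2.08 and 9.38, and Wdyhv1 read 11.26, 7.35 and 4.07. The tubulin gene Tubb2a read 9.87, 3.65 and 11.10, and its other probe set 7.80, 6.64 and 7.06, lowest on replicate 2 in both. Mpo, Xist, Igk, Bcl2l11, Tubb1 and Eno2, given above, completed the 10, with ranges down to 7.17 log2 units. Each of the 3 arrays held the highest value of at least 2 of these 10 genes.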

How the data were processed

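The deposited table holds log2 expression values per probe set; per the submitters' processing notes the authors used RMA, Affymetrix Expression Console and Partek, with versions and settings not given in the sources used here. Of 45037 probe sets, 34945 named a single gene in the platform annotation, which can be old, 932 named several and 9160 none, and 34741 of the first were matched to RefSeq symbols by Entrez number. Per gene the probe set with the highest mean over the 3 wildtype arrays was kept, with no further normalization. SDs are over 3 arrays, whose number limits the precision. With 1 group there was no test.

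Members and lists were chosen with earlier results of these data known. Named genes were the label's 6 markers, the 15 brightest genes, up to 3 brightest and the 2 dimmest of each list, all members of lists of 11 or fewer, stem cell factors and surface genes in the brightest 10% or not over the olfactory bound on all 3 arrays, the 10 steadiest of the brightest 10%, and the 10 with the widest range. Sex-linked genes, other genes outside this rule and the array patterns by list were named after their values were seen. Alternatives were other probe set rules, normalizations and bounds, and leaving out each array. Values were computed in Python 3.11.15 with numpy 2.4.6 and pandas 2.3.3, plots were drawn with matplotlib 3.10.9, and the scripts were tested on simulated data.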

Additional observations from a re-analysis of the deposited data

Results flagged for a closer look

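Signal was also found in probe sets that entered no gene above. Of 9160 probe sets with no gene name in the annotation, 573 (6.26%) passed the stricter bound on all 3 arrays, with a median signal of 3.93 over all of them. Of 932 probe sets that name several genes, 374 (40.1%) did so, with a median of 6.22. Among probe sets that name a single gene the count was 8460 of 34945 (24.2%), with a median of 5.37.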

How the results depend on the processing

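No paired analysis was possible because the 3 arrays form 1 group and no result comes from a test. Quantile normalization and centring of the arrays moved neither the counts of genes over or near the olfactory bound nor any of the 49 list medians beyond the spread between arrays. This was largely built in. Each bound is a percentile on its own array, so centring cannot change a count, and the values were already RMA signals with similar distributions. These 2 settings therefore say little about how robust the counts are. Averaging all probe sets of a gene lowered the start of the brightest 10% to 8.50 and the median SD to 0.32, and moved 37 list medians, all down; with unique probe set types only the start was 9.40 and 16 list medians moved. The bound from genes of other tissues, chosen after seeing the data, left 5513 genes over it and 9141 at or under it on all 3 arrays, and 3539 in between. A bound at the 99th percentile of olfactory receptors left 8203 genes over it, and a bound from vomeronasal and taste receptors 8954. Leaving out 1 array at a time gave 11136 to 11575 genes over the olfactory bound and 5073 to 5289 near background, with 1545 to 1768 split, a start of the brightest 10% from 9.62 to 9.67 and a median SD from 0.28 to 0.30. Leaving out replicate 1, 2 or 3 moved 8, 7 and 5 list medians. Signal near the bound limits which genes can be called, since 2468 genes fell on both sides of it.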

Other observations

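Genes grouped only by the root of their symbol, in 126 families of at least 15 members, gave an order of signal that needed no curated list. A root takes any symbol with the same letters before a number, so it can mix kinds of genes, and the names given here describe the typical member. In Rps 20 of 30 genes passed the stricter bound on all 3 arrays, against 39 of 44 in the ribosomal protein list. Below the roots Rpl (median 13.09) and Rps (12.45) came the initiation factors Eif (9.47), the mitochondrial ribosomal Mrpl (8.91), the cytochrome oxidase genes Cox (8.76), the nuclear pore genes Nup (8.75) and the mitochondrial ribosomal Mrps (8.70). Of the Nup genes 19 of 19 passed the olfactory bound on all 3 arrays. RNA polymerase subunits Polr (8.49), mitochondrial importers Timm (8.44) and ubiquitin-conjugating enzymes Ube (8.40) followed. The 10 dimmest families were vomeronasal receptors Vmn (2.73), prolactin family hormones Prl (2.79), olfactory receptors Olfr (2.87), hair keratin-associated proteins Krtap (2.94), protocadherins Pcdhb (3.06), defensins Defb (3.22), late cornified envelope genes Lce (3.23), serpins Serpinb (3.3), transporters Slco (3.33) and cytochromes P450 Cyp (3.38).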
